A study of Mus musculus and unidentified plasmid with 60 samples.

Results

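The densest stretches of the binding map of a dominant-negative RFX protein are described here. Regions listed in silenced neurons were assigned to fixed windows of 100 kb by their start, and windows on chromosomes 1 to 19 with at least 18 regions were kept and are called crowded. The 403 crowded windows made up 1.73% of the 23284 windows with any region and held 7839 of the 173231 regions in the list, or 4.53%. The windows were chosen by their count of regions at 0 h, so every measure of the 0 h list is given as a description, with no test.

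RFX proteins are transcription factors with a winged-helix DNA-binding domain that recognise X-box sequences, often as dimers. They are known as regulators of ciliary genes and, in immune cells, of MHC class II genes, and several members are expressed in neurons. A dominant-negative form competes with the native proteins. Its chromatin occupancy shows where the tagged construct sits, which need not be where native RFX proteins sit. Regions of a genome that hold many binding events per unit of length are often gene-rich or rich in open chromatin, but no annotation of the lists' build was used here and no window is assigned to a gene.

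Cortical neurons were cultured from E16 embryos of CD-1 mice, and the 0 h and 1 h groups, on which all but the last result rest, carried the dominant-negative construct, introduced with lentivirus at day in vitro (DIV) 2. A group titled WT, of the same strain and age, has no treatment in its labels, and whether its neurons carried the construct is not clear from them. From DIV 6 the activity of the 0 h and 1 h neurons was blocked overnight by tetrodotoxin together with the NMDA receptor blocker DL-2-amino-5-phosphonopentanoic acid. At DIV 7 the 1 h group was depolarized with 55 mM KCl for 1 h, and the 0 h group was depolarized for 0 h. Chromatin was precipitated with a MYC antibody in 2 libraries per group, and each of these groups came as 1 combined list of regions with a centre position in 1 or both of 2 replicate columns, called the first and the second column. Such cultures can hold cells other than neurons, and lists of positions hold no marker by which the cell type could be checked.

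The second column was the sparser one at both times. On chromosomes 1 to 19 the first and the second column held 151872 and 120037 centres at 0 h and 111528 and 72731 at 1 h. Depth is unknown, since the lists hold no counts. Shares of regions below carry exact Clopper-Pearson intervals at 95% that cover counting error only, and neighbouring regions are not independent. No p-value was computed over regions, since regions are not replicates.

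Crowded windows formed the tail of a continuous distribution. Windows with any region at 0 h held a median of 7 regions, and 262 of the 403 crowded windows held 18 or 19. Only 26 held 23 or more, and the highest count was 31. Just outside the threshold, 245 windows held 17 regions, and just inside it 164 windows held 18. Regions of these neighbouring classes had the same median width of 220 bases, were supported by both columns in 67.1% and 67.4% of cases, and overlapped a 1 h region in 66.2% and 66.1%. No break in any of these measures marked the threshold. Outside chromosomes 1 to 19, 1 further window held at least 18 regions (19 of them) and was not counted.

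**Figure D1:**
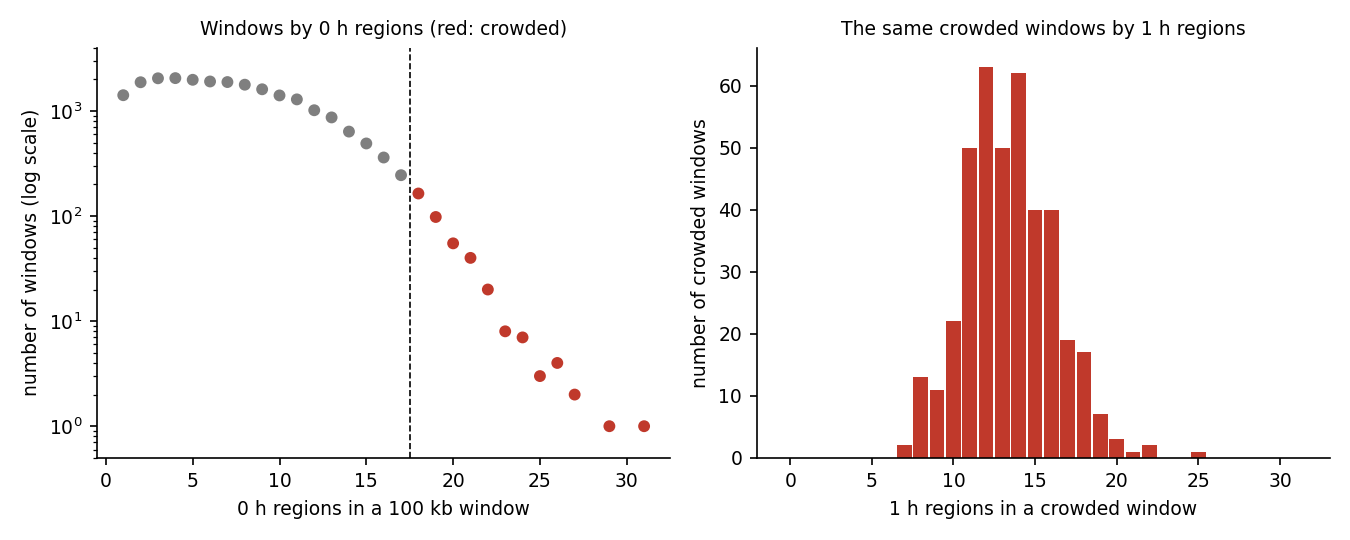
Left, number of 100 kb windows (log scale) against the number of 0 h regions in the window, with the 403 crowded windows in red and the threshold as a dashed line. Right, the same crowded windows by their number of 1 h regions, which ran from 7 to 25 with a median of 13.

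The crowded windows were spread over all 19 chromosomes. Chromosome 11 held most, with 33 windows or 2.79% of its windows with any region, followed by chromosome 5 with 32 (2.23%) and chromosome 8 with 30 (2.43%). Chromosome 1, the longest, held 19, which was the lowest share at 1.02%. Chromosome 10 had a share near that, with 13 windows or 1.04%. Most crowded windows stood alone: 332 had no crowded neighbour, 60 formed 30 adjacent pairs, and 11 lay in 3 longer runs.

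The longest run covered 500 kb of chromosome 2, from 166000000 to 166499999 (mm9), with 19, 19, 21, 22 and 18 regions at 0 h and 13, 13, 16, 12 and 11 at 1 h in its 5 windows. The windows before and after it held 10 and 16 regions at 0 h, so the dense stretch ended more sharply on the left. Of its 99 regions at 0 h, 63 (63.6%) were met at 1 h. A run of 300 kb on chromosome 6, from 88700000 to 88999999, held 24, 18 and 25 regions at 0 h and 18, 10 and 16 at 1 h, and the run on chromosome 8, from 121100000 to 121399999, held 19, 20 and 21 at 0 h and 13, 13 and 16 at 1 h. Retention in these runs was 65.7% and 68.3%. Each of the 11 windows had fewer regions at 1 h than at 0 h, as did all but 2 of the 403 crowded windows.

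The surroundings of crowded windows were also dense. The windows 100 kb away held a mean of 12.0 regions at 0 h and 8.39 at 1 h, against 19.5 and 13.4 in the crowded windows themselves. At 500 kb the means were 10.2 and 7.24, and at 1000 kb 9.50 and 6.83, still above the means of 7.24 and 5.27 over all windows with any region. The counts thus fell steeply at the edge of the chosen window, as the choice itself makes them do, and then slowly over the next 1000 kb. The number of 1 h regions per 0 h region was 0.697 in the adjacent windows, 0.710 at 500 kb and 0.719 at 1000 kb. It was 0.691 in the crowded windows and 0.704 in all other windows with a 0 h region. Choosing windows by a high 0 h count in itself favours a lower ratio in them.

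**Figure D2:**
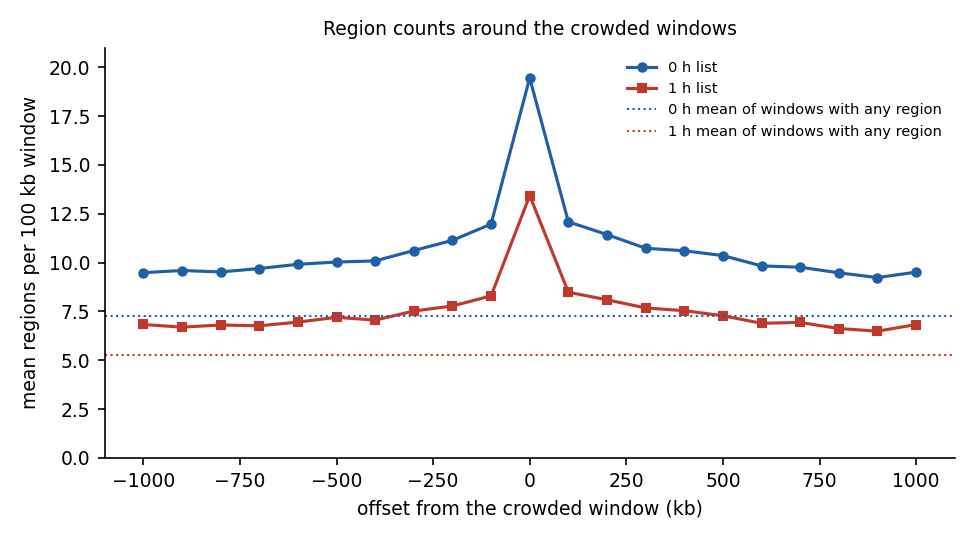
Mean number of regions per 100 kb window against the offset from the crowded window in kb, for the 0 h list (blue) and the 1 h list (red), with the means of all windows with any region as dotted lines. Both curves stay above their dotted lines out to 1000 kb on either side.

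Within crowded windows the median distance from a region to its nearest neighbour was 1.90 kb (quartiles 0.970 and 3.46), against 4.13 kb in all other windows (quartiles 1.78 and 8.76). A neighbour within 500 bases was found for 6.79% of members and 3.73% of regions in other windows. Most members thus had no neighbour that close. With regions within 500 bases merged, 317 windows with 6132 regions still reached the threshold, against 403 with 7839. Regions were not evenly laid out inside the windows. The longest empty stretch between neighbouring regions of a window ran from 7.85 to 48.4 kb with a median of 15.2 kb, while the median gap of a window was 3.28 kb (lowest 1.22, highest 5.84).

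Members with a very close neighbour were narrower and less often supported by both columns, as were such regions in other windows. The 532 members with a neighbour within 500 bases had a median width of 175 bases, centres in both columns in 50.9% and a 1 h counterpart in 53.2% (interval 48.9% to 57.5%). The 1523 members with a nearest neighbour at 500 to 1000 bases had a median width of 230 bases, and 70.5% had centres in both columns and 68.0% a 1 h counterpart (interval 65.6% to 70.4%). Beyond 1000 bases, retention was 65.3% to 67.5% in the 3 wider spacing classes. In the other windows, regions with a neighbour within 500 bases had a median width of 150 bases and centres in both columns in 44.9%. At 500 to 1000 bases these values were 210 bases and 65.0%. Retention in the other windows was 53.7%, 67.6%, 66.4%, 65.9% and 65.2% in the same 5 spacing classes. At equal spacing, the crowded windows differed from the others by between -0.50 and 1.36 percentage points of retention.

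Members were slightly wider than regions elsewhere. Median width was 220 bases (quartiles 120 and 320) in crowded and 200 bases (quartiles 120 and 300) in other windows, and 4.52% against 3.14% were at least 600 bases wide. The covered length per window was 4712 bases in crowded windows and 1572 bases in the others, a ratio of 3.00, while the ratio of regions per window was 2.77. The lowest and the highest covered length of a crowded window were 2300 and 9540 bases. Even the densest windows were thus mostly empty of listed binding, with 4.71% of bases covered at 0 h.

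The widest members were found at both times. On chromosome 12 the region from 88142140 to 88144150 was 2010 bases wide, and its centres in the 2 columns lay 1130 bases apart. At 1 h it was met by 2 regions with a summed width of 1290 bases. On chromosome 11 the region from 113643490 to 113645340 was 1850 bases wide and met 1 region of 1360 bases, and the region from 98610600 to 98612220 was 1620 bases wide and met 2 of 1200 bases in all. Chromosome 7 held a member of 1820 bases (26035390 to 26037210) that met 2 regions of 1450 bases. A second member on chromosome 12, of 1640 bases (88231470 to 88233110), met 2 regions with a summed width of only 440 bases. All 5 thus had less covered length at 1 h, and 4 of them were met by 2 regions. Choosing the widest regions of the 0 h list in itself favours narrower counterparts.

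Members had centres in both columns more often than regions elsewhere. They did so in 5290 of 7839 cases (67.5%, interval 66.4% to 68.5%), against 60.9% in the other windows (60.7% to 61.1%) and 61.0% in the whole list. A centre in the first column only was held by 21.4% of members and 29.2% of the others (29.0% in the whole list), and a centre in the second column only by 11.1% and 9.90% (9.97% in the whole list). The share with both columns was higher in crowded than in other windows on 19 of 19 chromosomes, by 2.68 to 8.82 percentage points. Chromosomes share the same 2 libraries and are not replicates, so this tally describes the chosen regions only. The median distance between paired centres was 10 bases in crowded and in other windows.

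This difference was part of a trend over all windows. Among windows with a single 0 h region, 47.0% of regions had centres in both columns and 45.5% in the first only. The share with both was higher in each denser class of window and reached 68.1% in windows with 21 to 31 regions, while the share with the first only was lower in each and reached 20.3%. For the second only the ends were 7.50% and 11.6%, with the lowest share of 7.38% in windows with 2 or 3 regions. The 2 columns were therefore unequally spread. Crowded windows held 4.59% of all first-column centres and 5.13% of all second-column centres at 0 h, and 4.51% and 5.38% at 1 h, although the 1 h columns took no part in the choice. Centres per crowded window exceeded those per other window by 2.73 and 3.07 times at 0 h and by 2.68 and 3.23 times at 1 h. In both lists the sparser column was the one more concentrated in crowded windows. Support by both columns and the spread of the sparser column cannot be told apart here, and the part of either in the trend was not tested.

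**Figure D3:**
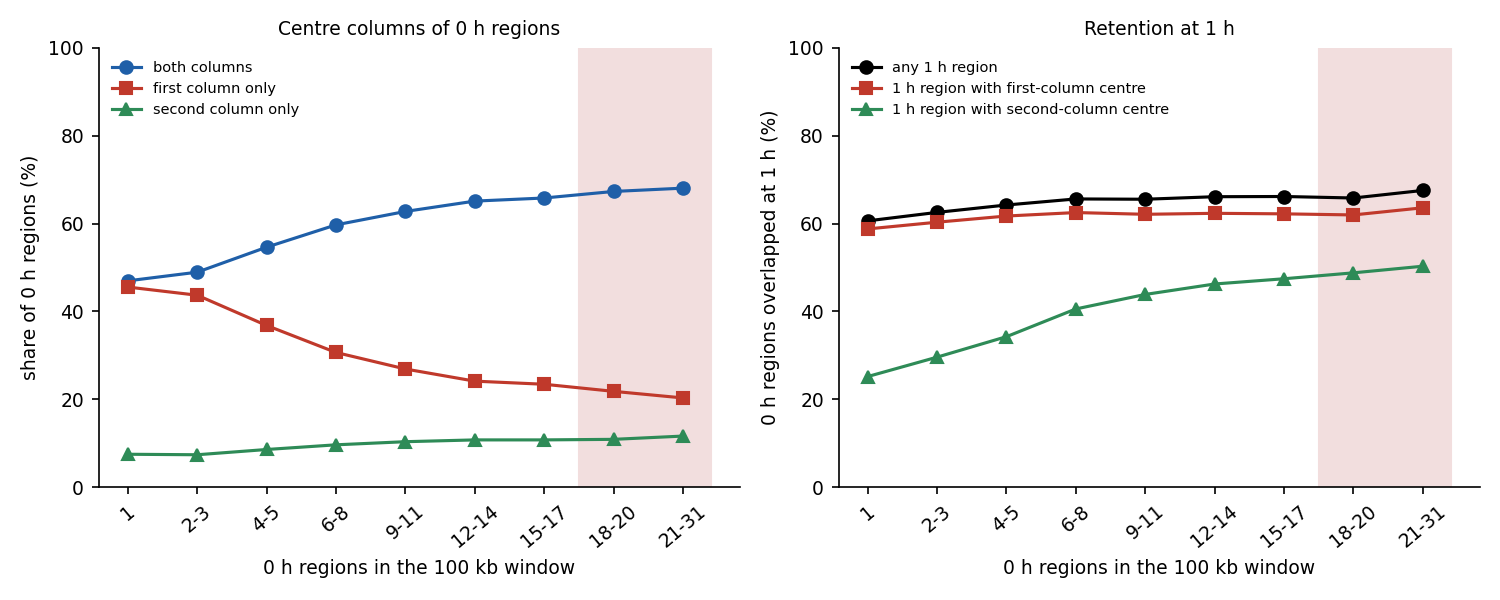
Left, share of 0 h regions with centres in both columns, the first only or the second only; right, share of 0 h regions overlapped at 1 h by any region, by one with a first-column centre or by one with a second-column centre. Both are plotted against the number of 0 h regions in the window, with crowded windows shaded. The share met through second-column centres climbs from 25.2% to 50.3%, while the other 2 curves on the right stay between 58.8% and 67.5%.

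Windows dense in 1 column were denser than average in the other. The first 0 h column alone had at least 18 centres in 168 windows, and the second column held a mean of 16.1 centres there (range 10 to 26), against 5.08 in the remaining windows. The second column alone had at least 18 centres in 64 windows, where the first held a mean of 19.4 (range 14 to 28), against 6.49 in the remaining windows. The measured column was not used to choose the windows. In every window so chosen it held more centres than the mean of the remaining windows. Regions were combined by the authors across the columns, which can tie their positions to each other, and 61.0% of the whole list had centres in both. All 168 and all 64 windows were also crowded by the combined list, as the counting makes them, since each centre belongs to a listed region. Because the regions were combined, the columns cannot be taken as independent, and these counts are a description.

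The next question was how far the crowded windows kept their regions after depolarization. They held 5413 regions at 1 h, a mean of 13.4 per window, against 4.95 in the other windows. With 1 column at a time, crowded windows held 12.5 and 9.71 centres at 1 h (mean 11.1 ± 1.95 SD, n = 2 columns), and other windows 4.65 and 3.01 (mean 3.83 ± 1.16). The number of 1 h regions in a crowded window ran from 7 through a median of 13 to 25, whereas 29.5% of other windows reached 7 and their highest count was 20. The 2 distributions overlapped, but windows crowded at 0 h were dense at 1 h too, in either column. Of the 345 windows with at least 14 regions at 1 h, 192 (55.7%) were crowded at 0 h, and these were 47.6% of the crowded windows. Of the 22881 other windows, 153 reached 14.

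Retention of members differed from that of regions elsewhere by less than the spread between columns, and its direction depended on the column left out. Of the 7839 members, 5192 (66.2%, interval 65.2% to 67.3%) overlapped a 1 h region by at least 1 base. Of the 160825 regions in other windows 65.4% did (interval 65.1% to 65.6%), and the share in the whole list was 65.4%. The difference was 0.88 percentage points. When the 1 h columns were taken separately, it was 0.29 points for 1 h regions with a first-column centre (62.4% against 62.1%) and 7.35 points for those with a second-column centre (49.2% against 41.8%). The mean difference was 3.82 ± 4.99 points (SD, n = 2 columns), so the difference was smaller than the spread between the columns. That spread may hold the unequal number of centres in the columns as well as replicate error, which was not tested. With windows chosen without the first 0 h column the difference was -2.01 points, and without the second 3.01. Over chromosomes the difference was positive on 12 and negative on 7, from -9.25 points on chromosome 16 to 6.39 on chromosome 13. With second-column centres it was positive on 19 of 19 chromosomes, from 1.06 to 12.0 points, but chromosomes are not replicates and all share that column.

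Retention followed support and width inside the crowded windows as it did outside. Members with centres in both columns were met at 1 h in 84.7% of cases (interval 83.7% to 85.7%), against 84.9% in other windows and 84.9% in the whole list. With a first-column centre only, 34.6% of members were met (32.3% to 37.0%), against 41.3% in other windows (40.8% to 41.7%). With a second-column centre only the shares were 14.6% (12.3% to 17.2%) and 15.8% (15.3% to 16.4%). Taken by 1 h column, the difference for members with a first-column centre only was -8.16 points through first-column centres and 2.81 through second-column centres (mean -2.68 ± 7.76 SD, n = 2 columns). Its direction thus differed between the columns, which hold unequal numbers of centres. Members of 10 to 100 bases were met in 16.7% of cases and those of 330 bases or more in 97.3%, compared with 18.4% and 98.1% in other windows.

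At equal width and support, no difference in retention beyond the spread between columns was seen. In 13 of the 15 combinations of 5 width classes and 3 support classes the share was lower in crowded windows. When the other windows were weighted to the same mix of classes as the members, their retention was 67.7%, so the difference changed sign to -1.43 points. By 1 h column, the difference so weighted was -1.91 points through first-column centres and 2.18 through second-column centres (mean 0.14 ± 2.89 SD, n = 2 columns). Members of 190 to 240 bases with both columns were met in 78.3% (75.7% to 80.7%), against 79.9% (79.4% to 80.5%).

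**Figure D4:**
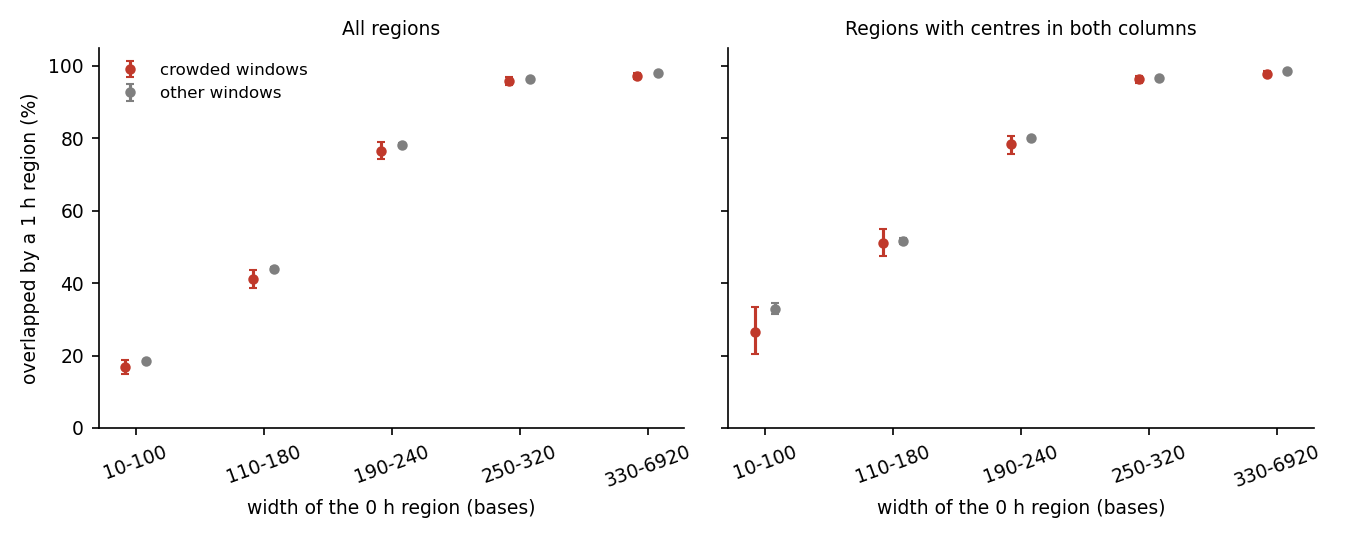
Share of 0 h regions overlapped by a 1 h region against the width class of the 0 h region in bases, for crowded (red) and other windows (grey), with all regions on the left and regions with centres in both columns on the right. Bars are exact 95% intervals that cover counting error only. Red and grey points lie close together in every class, and shares of all members climb from 16.7% in the narrowest class to 97.3% in the widest.

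Retained members had 1 h widths in about the same proportion to 0 h widths as regions elsewhere. The median of 1 h width over 0 h width was 0.893 in crowded and 0.900 in other windows. Median 0 h width was 280 bases for retained and 100 bases for lost members, against 260 and 100 bases elsewhere. In the class of 330 bases or more, the median ratio was 0.943 in crowded and 0.944 in other windows, and in the class of 190 to 240 bases it was 0.739 and 0.789. In the class of 10 to 100 bases it was 1.44 for members and slightly higher elsewhere, as the choice of narrow 0 h regions favours wider counterparts. A member met more than 1 region at 1 h in 51 cases (0.65%), against 0.50% elsewhere. In the other direction, 15 of the 5413 1 h regions in crowded windows (0.28%) joined at least 2 regions of the 0 h list, against 0.16% elsewhere. Splitting and joining were rare in both kinds of window.

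Regions listed only after depolarization made up a smaller share of the 1 h regions in crowded windows than elsewhere. They numbered 185 of 5413 regions at 1 h (3.42%), against 6.67% in other windows and 6.69% in the whole 1 h list. Per window they were not fewer. The mean was 0.46 per crowded window, while the 22881 other windows held 7553, which is fewer per window. Their share of the 1 h regions fell through every class from 21.7% in windows with a single 0 h region to 3.11% in those with 21 to 31. Windows chosen for many 0 h regions offer more counterparts by construction, so the shares are given as a description. What part the choice has in the difference was not tested. At least 1 such region was held by 141 crowded windows, and the highest number was 3. The 1 h regions in crowded windows had centres in both columns in 65.2% of cases and a median width of 230 bases, against 54.6% and 210 bases elsewhere.

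The most crowded window lay on chromosome 5 from 112100000 to 112199999. Its 31 regions at 0 h had a median width of 210 bases and a median gap of 2.01 kb, and the longest empty stretch was 9.87 kb. Both columns supported 23 of them, the first alone 5 and the second alone 3. At 1 h the window held 22 regions, and 22 of the 31 were retained. The retained regions had a median width of 295 bases and the lost ones of 100 bases. Of the 9 lost regions, 4 were supported by both columns, 2 by the first alone and 3 by the second alone.

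The widest regions of that window were listed at both times. The regions from 112147150 to 112148460 (1310 bases), 112190170 to 112191210 (1040 bases) and 112132670 to 112133700 (1030 bases) were 1250, 800 and 1000 bases wide at 1 h. Neighbouring regions from 112153770 to 112154130 and from 112154620 to 112154910, which stood 490 bases apart at 0 h, were listed as 1 region of 1080 bases at 1 h (112153820 to 112154900). The region from 112111960 to 112112180 was 220 bases wide with both columns at 0 h, and its counterpart was 10 bases wide with a first-column centre only. A region of 40 bases at 112197160 to 112197200 was listed only at 1 h, and a 0 h region of 10 bases close to it (112197220 to 112197230) was not met.

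The 10 windows with most 0 h regions held 268 regions on 8 chromosomes, and 189 of these (70.5%) were retained, against 65.4% in the whole list. Single windows of the 10 ran from 57.7% to 88.9%, and all windows with 21 to 31 regions together had 67.5% (interval 65.4% to 69.6%). Both columns supported 190 of the 268 (70.9%), against 61.0% in the whole list. Of those 190, 23 were lost at 1 h, against 807 of 5290 (15.3%) in all crowded windows and 15.1% in other windows. Only 2 regions of the 1 h list in these windows had no counterpart at 0 h. After chromosome 5 came chromosome 17 from 72300000 to 72399999 with 29 regions at 0 h and 19 at 1 h. Windows with 27 regions lay on chromosome 4 (63000000 to 63099999) and chromosome 6 (114400000 to 114499999), with 19 and 25 regions at 1 h. The window on chromosome 6 had a median width of 370 bases, the highest of the 403 crowded windows, and retained 24 of its 27 regions. Part of it had a near-regular layout, with 0 h midpoints 54.57, 57.005, 59.345, 61.91, 64.14 and 66.58 kb from the window start. At 1 h the midpoints there were 54.54, 56.955, 59.38, 61.895, 64.14 and 66.45 kb. What gives this layout was not tested, and the input libraries were not analysed.

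Windows with 26 regions kept between 15 and 22 of them, with intervals of 36.9% to 76.6% and 65.1% to 95.6% for these shares, which overlap. The one on chromosome 7 (17500000 to 17599999) had a median width of 345 bases and kept 22 regions, and the one on chromosome 2 (157300000 to 157399999) had a median width of 295 bases and kept 18. The one on chromosome 11 (98600000 to 98699999) kept 16 and had an empty stretch of 23.8 kb. The one on chromosome 5 from 143100000 to 143199999 kept 15, or 57.7%, the lowest share of the 10, and had a median width of 190 bases. The last 2 of the 10 held 25 regions each and lay on chromosome 6 (88900000 to 88999999, 16 kept) and chromosome 12 (101400000 to 101499999, 18 kept).

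**Figure D5:**
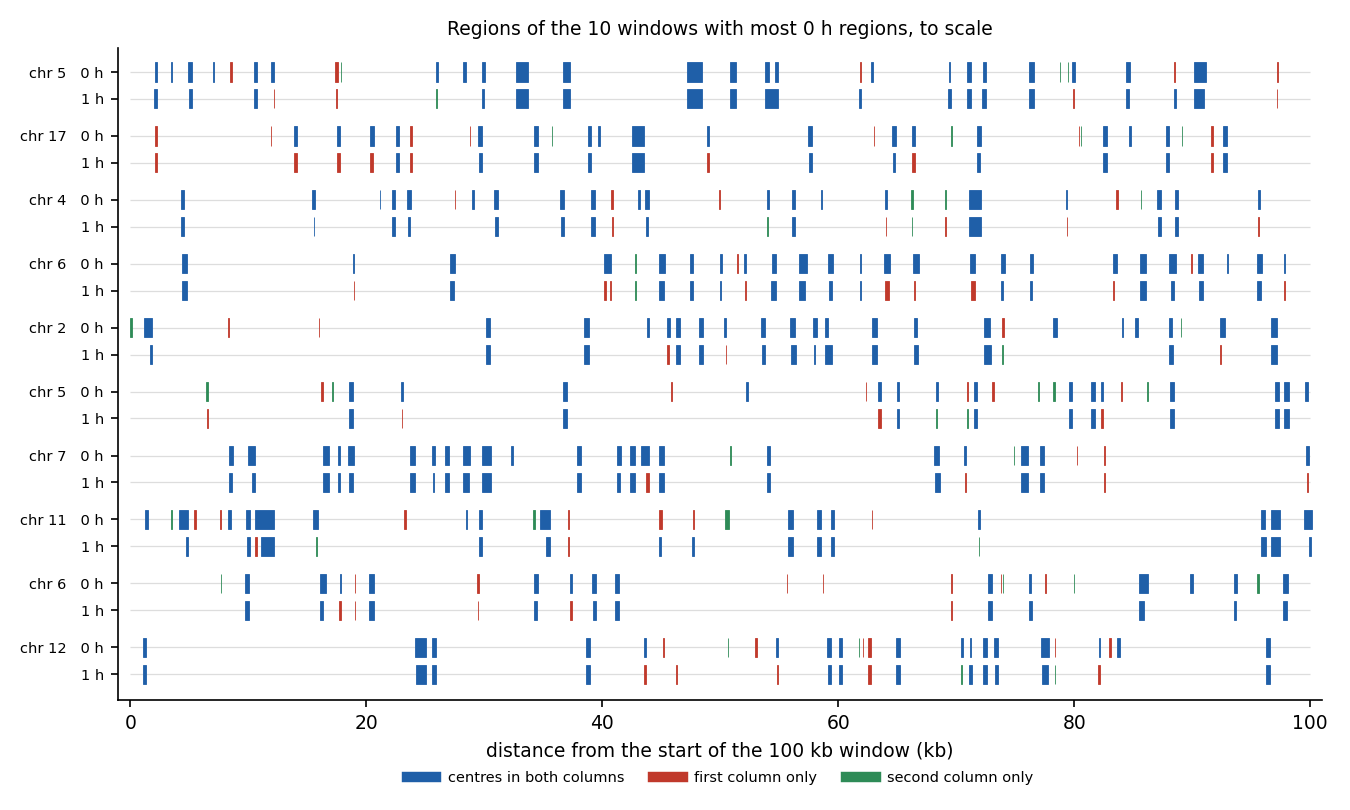
Regions of the 10 windows with most 0 h regions, drawn to scale along the distance from the window start in kb, with the 0 h list above the 1 h list in each pair of rows. Colours give the centre columns (blue both, red first only, green second only). Broad blue regions recur in both rows, while narrow red and green ones often stand in the upper row alone.

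Window by window, retention is imprecise because each share rests on 18 to 31 regions. The lowest, the median and the highest share retained in a crowded window were 30.0%, 66.7% and 94.7%. No crowded window kept every region, 26 kept under 50%, and 40 kept at least 80%. All regions with centres in both columns were kept by 61 windows. Across the 403 windows, the share retained had a Spearman rho of 0.62 with the median width of the window's regions, of 0.52 with the share with both columns and of 0.02 with the number of regions. Both measures come from the same 0 h regions, and these values describe the windows with no test. The range of the number of regions is narrow, and retention was 65.8% in windows with 18 to 20 regions (interval 64.6% to 67.0%) and 67.5% in those with 21 to 31 (65.4% to 69.6%).

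The windows at the extremes, chosen by their retention, are given as a description. On chromosome 5 from 124600000 to 124699999, 18 of 19 regions were kept, and the window held 20 regions at 1 h, 1 of 2 crowded windows with at least as many as at 0 h. Chromosome 13 from 51600000 to 51699999 kept 18 of 19, and chromosome 7 from 147000000 to 147099999 kept 17 of 18. Median widths in these 3 were 270, 260 and 330 bases, and all regions with both columns were kept. The lowest shares were found on chromosome 12 from 109100000 to 109199999 (6 of 20 kept), chromosome 16 from 30600000 to 30699999 (6 of 19) and chromosome 11 from 88100000 to 88199999 (7 of 21). Their median widths were 155, 120 and 120 bases, and they lost 4 of 9, 4 of 10 and 5 of 12 regions with both columns. The window on chromosome 12 also held 3 regions listed only at 1 h. Among windows with most regions at 1 h, chromosome 6 from 40100000 to 40199999 held 22 regions at 0 h and 21 at 1 h.

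Members with centres in both columns and no counterpart at 1 h numbered 807 of 5290 (15.3%), against 15.1% in other windows. The loss was thus at the level of the other windows. The widest of these members lay on chromosome 9 (118894750 to 118895380) and chromosome 18 (69679380 to 69680010), both 630 bases wide, with paired centres 15 and 20 bases apart. Their nearest 1 h regions lay 580 and 560 bases away, and their nearest 0 h neighbours 600 and 530 bases away. A member of 620 bases on chromosome 4 (41788020 to 41788640) and another of 590 bases on chromosome 13 (20369340 to 20369930) had their nearest 1 h regions 1200 and 540 bases away. The nearest 0 h neighbours of these lay 1210 and 520 bases away. On chromosome 11 (109061410 to 109062000, 590 bases) the paired centres lay 435 bases apart, and the nearest 1 h region was 5410 bases away. Its nearest 0 h neighbour was 5390 bases away. The other 4 had centres at most 40 bases apart, so the columns placed them at nearly the same position at 0 h.

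Of the 43 regions in the list of the group titled WT, 2 lay in crowded windows (4.65%, interval 0.57% to 15.8%), a share near the 4.53% of the 0 h list. They lay on chromosome 3 (145353850 to 145354050) and chromosome 17 (56339290 to 56339650), had a first-column centre only, and overlapped a region at both times.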

How the data were processed

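Primary cortical cultures were profiled by ChIP-seq in 8 libraries of 4 groups, of which the lists of 3 groups with 2 libraries each were used. The input libraries and the reporter and plasmid samples were not analysed here. Region starts and ends and the centres in columns c1 and c2 are genome positions in bases, deposited by the authors with no score or count. Bowtie and the build mm9 are named, per the submitters' processing notes. The peak caller, threshold, joining of replicates and coordinate base were not given in the sources used here, so positions are printed as listed, while window bounds are those of the start positions. The absence of a centre in a column was read from the value -1. The columns name no library, and the labels do not say whether libraries of 1 group are from separate cultures, so an SD over columns may be technical.

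Regions met when they shared at least 1 base. Other windows are all windows of chromosomes 1 to 19 with a 0 h region and under 18 of them. Width classes are 5 classes of near-equal size over chromosomes 1 to 19. Windows named are the 10 with most 0 h regions, the 5 with most 1 h regions, 3 each with the highest and lowest retention and runs of at least 3, and regions named are the 5 widest members and the 5 widest with both columns and no counterpart. Further regions of the most crowded window, and the near-regular layout on chromosome 6, were chosen after their values were seen. The members, lists and measures were chosen with earlier results of these data known. The code was tested on simulated lists with planted windows and planted overlaps. Python 3.11.15, numpy 2.4.6, pandas 2.3.3, scipy 1.17.1 and matplotlib 3.10.9 were used.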

Additional observations from a re-analysis of the deposited data

How the results depend on the processing

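No paired analysis was possible because no result comes from a test over samples and c1 and c2 carry no replicate number. The rule decides how many windows count as crowded: a threshold of 16 gave 1009 windows with 17780 regions, a threshold of 20 gave 141 with 3025, and counting only regions with both columns gave 15 with 294. With 1 column of the 0 h list left out, 64 windows with 1238 regions (without the first) or 168 with 3228 (without the second) remained. A grid shifted by 50 kb (395 windows) and merging regions within 500 bases (317) moved the number by less than 1.5 times. Retention in crowded windows was 87.4% for regions with both columns only and 54.8% when overlap had to reach 50% of each region. With 1 column of either list left out its lowest value was 49.2%, without the first 1 h column, and its highest 73.8%, without the second 0 h column. The difference from other windows stayed between -2.01 and 7.35 percentage points over 14 alternatives, being above 0 in 11 and below 0 in 3. It was lowest without the first 0 h column, was -1.43 at equal width and support (2.18 without the first and -1.91 without the second 1 h column, alternatives chosen after seeing the data), and was highest without the first 1 h column. Regions at 1 h per crowded window were 9.71 to 12.5 with 1 column left out and 13.7 on the shifted grid. Standardising to the members' own classes leaves their retention as it is. The lists hold no depth, which leaves their detection limits unknown.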
